A study of Homo sapiens with 6 samples.

Results

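The 7 genes GPR110, GPR116, GPR126, GPR56, CELSR1, CELSR2 and CELSR3 encode adhesion G protein-coupled receptors (adhesion GPCRs), and their RNA was followed in H2087-LCC cells that were kept without TGFβ signaling or exposed to TGFβ. They were chosen with earlier results of these data known and listed by symbol, under the older names the deposited table uses. All 7 were found among its 21293 genes. GPR110 was selected on its measured fall, so its values are given as a description, without a p, and it was left out of the counts of called members. It stayed in the fit and the counts over all genes. The other 6 genes were tested.

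H2087-LCC is a latency competent lung adenocarcinoma (LUAD) line, obtained by in vivo selection from the human line H2087 and labelled as a dormant metastatic derivative; it is a single line. All libraries came from these cells, which carry a RAS mutation, and no engineered allele was named. Of the 6 libraries, 2 were from cells given SB505124 for 3 days (SB, which blocks the type I TGFβ receptor kinase), 2 from cells given TGFβ for 3 days and 2 from cells given TGFβ for 7 days. In the study's words the pairs are technical replicates, and the errors below may leave out differences between cultures. The 7-day time point has no SB library, so the effect of 7 days of TGFβ relative to SB cannot be told apart from the longer time in culture. The same holds for the comparison of 7 with 3 days of TGFβ. Poly(A) RNA was sequenced, and a value is a read count per gene that the authors divided by a library size factor, called a normalized count here.

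The normalized counts summed to between 34306283 and 36340734 per library, and 1 read was worth an estimated 0.896 to 1.10 normalized counts, so the deepest library held an estimated 1.25 times the reads of the shallowest. Epithelial markers of a carcinoma were present in every library: KRT8 lay between 33341 and 42692, KRT18 between 31757 and 50793 and KRT19 between 3785 and 6809. EPCAM was at 10180 and 9106 with SB, 6610 and 5994 at 3 days and 2988 and 3277 at 7 days, and KRT7 at 5860 and 6183, 15440 and 18905, then 13979 and 11230. CDH1 was at 371 and 635 with SB and between 9 and 28 with TGFβ, and NAPSA, of lung adenocarcinoma, was at 99 and 234 against 5 to 9. SMAD7, a feedback target of TGFβ, was at 112 and 79 with SB and between 747 and 916 with TGFβ, and the CDK inhibitor gene CDKN1A at 1253 and 1184 against 3125 to 3840. SFTPB, a surfactant protein gene, was at 1104 and 8273 with SB and at 19 to 24 with TGFβ, and NKX2-1 at 2784 and 2908 against 712 to 857, so these lung markers were lower in the same libraries as GPR110. Their part in the results was not tested. Of the markers of other cell types, PTPRC, CD3E, VWF, CDH5, HBB and ALB stayed at or below 20 in every library, HBB at 0 in all, PECAM1 lay between 36 and 67, and CD68 and MBP were at 4368 to 5113 and 878 to 1217. Without CD68 and MBP, these 7 markers summed to 67 and 70 with SB, 68 and 80 at 3 days and 68 and 61 at 7 days. The SB libraries differed from each other more than the others did, with 86 of the 11389 genes whose mean was 100 or more over 2-fold apart, against 2 and 4 genes in the TGFβ groups. In these bulk libraries, fewer cells with an RNA and less RNA per cell cannot be told apart.

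Adhesion GPCRs join a long extracellular part, built from adhesion domains, to the membrane-spanning bundle of a G protein-coupled receptor. Many cut themselves at a juxtamembrane GAIN domain, and the fragment left on the membrane can carry a tethered agonist that is exposed when ligand or matrix pulls on the receptor. Through G proteins they act on second messengers such as cyclic AMP and calcium. The CELSR proteins are large, cadherin-containing members of the family and work in planar cell polarity.

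On the GRCh37 (hg19) assembly with the GENCODE annotation, GPR110 (ADGRF1) spans chromosome 6 from 46965445 to 47010086 and GPR116 (ADGRF5) spans 46820259 to 46922680, both on the minus strand. GPR126 (ADGRG6) lies on chromosome 6 from 142622991 to 142767403 on the plus strand. GPR56 (ADGRG1) lies on chromosome 16 from 57644564 to 57699492 on the plus strand. CELSR1 spans chromosome 22 from 46756731 to 46933517 (minus strand), CELSR2 chromosome 1 from 109792161 to 109818373 (plus strand) and CELSR3 chromosome 3 from 48673896 to 48700319 (minus strand). All 7 are protein coding, and reads over their exons were counted. Among their exons, the 65 bases that CELSR3 shares with the microRNA gene MIR4793 were the only overlap with another annotated exon, 0.469% of its exon bases.

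Promoter sequence from RefSeq on GRCh38.p14 is shown for 3 genes that were lower and 1 that was higher after 7 days of TGFβ, so that the start regions can be read beside the values that follow. RefSeq promoters were found for 6 of the 7 genes, all but CELSR1. Each window holds 250 bases before and 50 after a transcript start, 5′ to 3′ on the gene's strand. Starts are numbered by rising position on the chromosome. On the minus strand the first GPR116 start is thus the downstream one. The other GPR116 start, not shown, lies upstream, with its window at chr6:46954890-46955189. These positions are not on the assembly of the gene spans above. Capitals mark CACCTG or its reverse complement CAGGTG, the E-box bound by ZEB and SNAI factors, and CAGACA or its reverse complement TGTCTG, the SMAD box. The letters of the E-box motif occurred in 20.6% and those of the SMAD box in 16.9% of 35116 RefSeq promoters of this length.
GPR110, chr6:47042283-47042582, minus strand: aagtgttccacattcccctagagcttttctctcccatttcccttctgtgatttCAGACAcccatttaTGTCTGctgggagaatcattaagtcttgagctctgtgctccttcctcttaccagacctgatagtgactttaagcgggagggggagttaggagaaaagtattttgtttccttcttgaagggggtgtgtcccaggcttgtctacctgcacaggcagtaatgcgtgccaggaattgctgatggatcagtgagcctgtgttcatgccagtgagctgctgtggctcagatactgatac
GPR116, the first of 2 starts, chr6:46921889-46922188, minus strand: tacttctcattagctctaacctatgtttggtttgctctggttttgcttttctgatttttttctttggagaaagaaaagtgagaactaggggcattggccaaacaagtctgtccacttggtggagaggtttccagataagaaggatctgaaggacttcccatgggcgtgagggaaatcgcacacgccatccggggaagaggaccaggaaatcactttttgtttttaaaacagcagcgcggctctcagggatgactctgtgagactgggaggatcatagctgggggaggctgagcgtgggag
GPR126, chr6:142301757-142302056, plus strand: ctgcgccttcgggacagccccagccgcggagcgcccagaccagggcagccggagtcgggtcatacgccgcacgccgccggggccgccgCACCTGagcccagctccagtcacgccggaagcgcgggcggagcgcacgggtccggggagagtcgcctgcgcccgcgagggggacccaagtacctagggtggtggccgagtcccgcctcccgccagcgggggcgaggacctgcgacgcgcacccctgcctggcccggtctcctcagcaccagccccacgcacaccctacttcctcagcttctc
GPR56, the second of 3 starts, chr16:57619796-57620095, plus strand: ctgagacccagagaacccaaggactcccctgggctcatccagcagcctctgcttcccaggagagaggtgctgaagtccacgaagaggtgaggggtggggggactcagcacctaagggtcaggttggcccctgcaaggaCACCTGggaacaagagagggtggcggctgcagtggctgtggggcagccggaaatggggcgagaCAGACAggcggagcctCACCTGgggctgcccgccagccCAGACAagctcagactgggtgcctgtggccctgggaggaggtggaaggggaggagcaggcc
The GPR110 window held 2 SMAD box matches and no E-box match. Neither motif was found in either GPR116 window. The GPR126 window held 1 E-box match, and its 36 CpG dinucleotides stood against 2 in the GPR110 window and a median of 14 over all promoters. In the GPR56 window shown there were 2 matches of each motif. The first start had 2 E-box matches and the third 2 SMAD box matches. The window shown was thus the only GPR56 window with both motifs, and the shares over all promoters are for single windows. The windows of CELSR2 and CELSR3 held neither motif and 30 CpG dinucleotides each. A match is a string of letters, and binding was not measured here.

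The question of the first comparison was how 3 days of TGFβ differed from 3 days of receptor inhibition. GPR116 fell, GPR56 and CELSR1 rose, and the differences of GPR126, CELSR2 and CELSR3 did not pass the test. Thus 3 of the 6 tested genes were called, where 29.0% of the 14395 genes tested were called, at a Benjamini-Hochberg adjusted p under 0.05 from the limma test. Higher were 2 of the 6 genes against 14.9% of all genes, and lower was 1 against 14.0%. The median log2 fold change of the 6 genes was -0.086, and that of all genes tested -0.022. After 7 days, all 6 were called relative to SB, where 54.5% of all genes were, with 4 higher (27.7% of all genes) and 2 lower (26.9%). Their median log2 fold change was then 0.94, against -0.00081 over all genes. Between 7 days and 3 days of TGFβ, 5 of the 6 were called, where 33.2% of all genes were, with 4 higher (17.0% of all genes) and 1 lower (16.2%). The median was 0.60, against 0.019 over all genes. The genes were chosen with earlier results of these data known, so these counts and medians describe them and do not stand for the family. Both comparisons with SB use the same SB libraries, and each library weighs on these counts. Without the first SB library, 4 of 6 were called at 3 days and 4 of 6 at 7 days. Without the first 3-day or the first 7-day TGFβ library, 3 of 6 were called between 7 and 3 days.

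**Figure D1:**
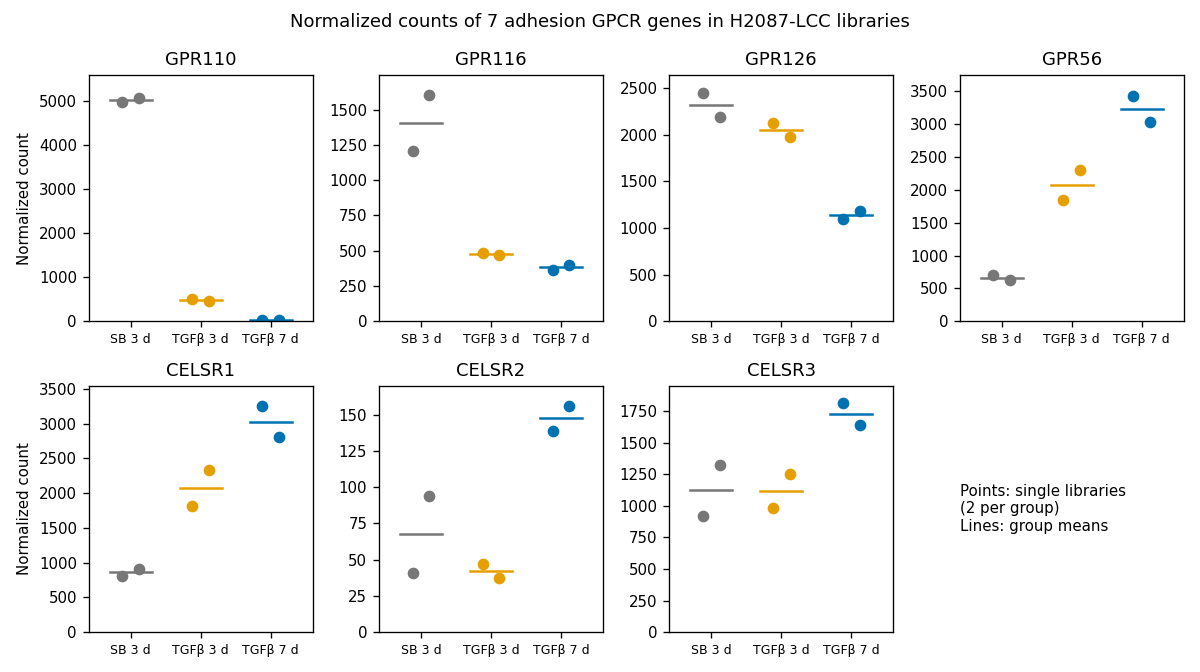
Normalized counts (y axis, linear from 0, a scale of its own in each panel) of the 7 adhesion GPCR genes in each library, by group (x axis); points are libraries and lines are means of 2. GPR110, GPR116 and GPR126 were lowest at 7 days of TGFβ, and GPR56, CELSR1, CELSR2 and CELSR3 were highest there.

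GPR110, a receptor of the ADGRF subfamily that responds to the docosahexaenoic acid derivative synaptamide, was chosen for its fall and is described without a test. Its normalized counts were 4963 and 5071 with SB, 513 and 450 after 3 days of TGFβ, and 40 and 39 after 7 days. The groups lay far apart, and the libraries within each group lay close together. The means ± SD were 5017 ± 76.4, 481.5 ± 44.5 and 39.5 ± 0.71 (n = 2 each). Relative to SB, the mean was 10.4-fold lower at 3 days and 127-fold lower at 7 days, and it was 12.2-fold lower at 7 days than at 3 days. On the log2(value + 1) scale these differences were -3.38, -6.95 and -3.57, so the first and the last were close in size. Ranked among the 11389 genes whose mean was 100 or more, its log2 fold change was the 27th, 8th and 4th lowest in these comparisons. At 7 days the RNA was low but detected, with exact Poisson 95% intervals of 29.4 to 54.0 and 27.9 to 54.1 normalized counts for the 2 libraries, for counting error only.

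GPR116, the receptor that holds down the surfactant pool in alveolar type II cells, was at 1209 and 1601 with SB, 481 and 471 at 3 days and 366 and 401 at 7 days. Every TGFβ library was below both SB libraries, and the 7-day libraries were below the 3-day ones. It fell by 1.55 ± 0.14 (SE) on the log2 scale after 3 days (adjusted p = 7.24e-06), and it fell by 1.86 ± 0.14 after 7 days (adjusted p = 6.8e-07). Its mean was 2.95-fold and 3.66-fold lower than with SB. Between 7 and 3 days the log2 fold change was -0.31 with an adjusted p of 0.109 and a 95% interval, not adjusted over genes, of -0.62 to -0.0038.

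GPR126, which binds collagen IV and is needed for myelination by Schwann cells, was at 2451 and 2192 with SB, 2127 and 1977 at 3 days and 1100 and 1186 at 7 days. The 3-day libraries lay just under the SB libraries, and those of 7 days lay well below both groups. Its log2 fold change at 3 days was -0.18 (95% interval -0.40 to 0.042, adjusted p = 0.213). At 7 days it fell by 1.02 ± 0.10 (SE) relative to SB (adjusted p = 5.86e-06), and it fell by 0.84 relative to 3 days (adjusted p = 0.000139). The mean at 7 days was 2.03-fold lower than with SB.

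GPR56, a receptor for collagen III and transglutaminase 2 that is known for cortical development and for marking cytotoxic lymphocytes, was at 701 and 623 with SB, 1844 and 2305 at 3 days and 3428 and 3033 at 7 days. The groups did not overlap and were in the order SB, 3 days, 7 days. GPR56 rose by 1.64 ± 0.12 (SE) on the log2 scale at 3 days (adjusted p = 1.41e-06) and by 2.28 ± 0.12 at 7 days (adjusted p = 3.8e-08), to means 3.13-fold and 4.88-fold those with SB. It was higher at 7 days than at 3 days by 0.64 (adjusted p = 0.00249).

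CELSR1, a planar cell polarity cadherin of epithelia, was at 808 and 915 with SB, 1810 and 2328 at 3 days and 3258 and 2803 at 7 days. These groups did not overlap either. CELSR1 rose by 1.25 ± 0.13 (SE) at 3 days (adjusted p = 2.08e-05) and by 1.81 ± 0.13 at 7 days (adjusted p = 4.2e-07), 2.40-fold and 3.52-fold by means. The further rise from 3 to 7 days was 0.56 (adjusted p = 0.00738). Its adjusted p was 0.0782 when the first 3-day library was left out and 0.0807 when that of 7 days was.

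CELSR2, a CELSR protein of ciliated ependyma and neurons, had few counts, with 41 and 94 normalized counts in the SB libraries, 47 and 37 at 3 days and 139 and 156 at 7 days. Its SB libraries were 2.29-fold apart and spanned the 3-day value of 47, whereas both 7-day libraries lay above all others. The log2 fold change at 3 days was -0.56 (95% interval -1.28 to 0.15, adjusted p = 0.225), and it depended on the SB library kept: -1.15 (adjusted p = 0.00745) without the first and 0.024 (adjusted p = 0.955) without the second. CELSR2 rose by 1.23 ± 0.33 (SE) at 7 days relative to SB (adjusted p = 0.00749), or by 0.64 without the first SB library (adjusted p = 0.0536). It rose by 1.80 from 3 to 7 days (adjusted p = 0.00199).

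CELSR3, the family member that guides axon tracts in the developing brain, was at 923 and 1326 with SB, 985 and 1251 at 3 days and 1815 and 1642 at 7 days. The SB and 3-day values overlapped, and the 7-day values lay above both. Its log2 fold change was 0.0049 at 3 days (95% interval -0.35 to 0.36, adjusted p = 0.986). It rose by 0.64 ± 0.16 (SE) at 7 days relative to SB (adjusted p = 0.00564) and by 0.64 relative to 3 days (adjusted p = 0.0117). The rise over SB was 0.38 without the first SB library (adjusted p = 0.0621). Leaving out the first 3-day library, the rise from 3 to 7 days was 0.46 (adjusted p = 0.0867), and leaving out that of 7 days it was 0.56 (adjusted p = 0.0802).

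**Figure D2:**
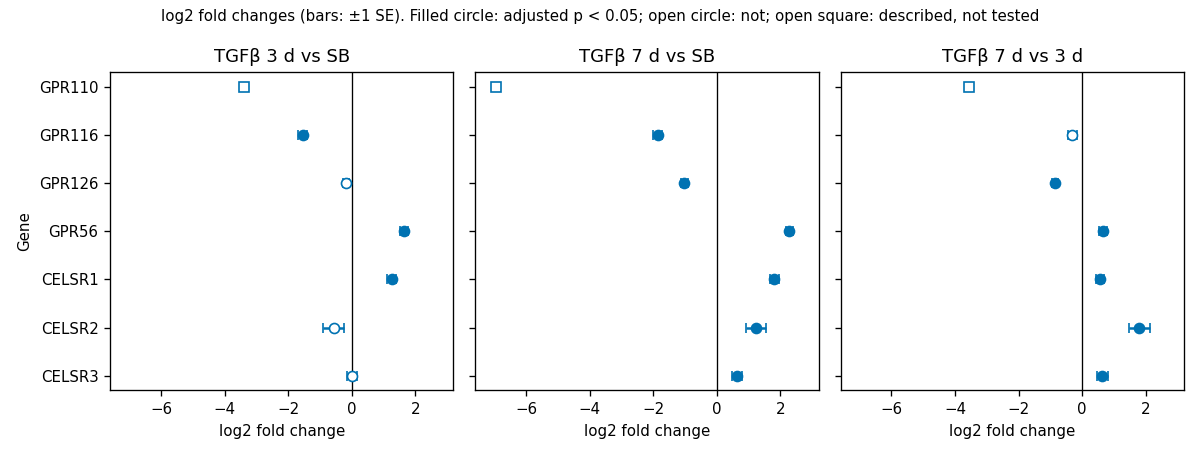
Log2 fold change (x axis) of each gene (y axis) in the 3 comparisons, with bars of 1 SE from the limma fit (many are shorter than the symbols); filled circles passed an adjusted p of 0.05, open circles did not, and GPR110 (open squares) was not tested. GPR110 lies at -3.38, -6.95 and -3.57, while the other 6 genes lie between -1.86 and 2.28.

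The genes differed in how much of the change relative to SB was present at 3 days. On the log2 scale, the 3-day difference was 83.2% of the 7-day difference for GPR116, 71.8% for GPR56, 69.2% for CELSR1, 48.6% for GPR110 and 17.3% for GPR126. For CELSR3 it was 0.76%, and for CELSR2 the 3-day difference had the opposite sign. These shares are descriptions, and both differences were taken from the same SB libraries. The test that bears on them is the comparison of 7 with 3 days, which GPR126, GPR56, CELSR1, CELSR2 and CELSR3 passed and GPR116 did not.

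Levels were compared between genes as normalized counts per kb of the canonical transcript. With SB, GPR110 stood first at 924 ± 14.1 per kb, followed by GPR126 at 340 ± 26.8, GPR116 at 244 ± 48.1, GPR56 at 156 ± 13.0, CELSR3 at 94.2 ± 23.9, CELSR1 at 74.5 ± 6.55 and CELSR2 at 6.13 ± 3.40 (SD, n = 2). The ranges of CELSR3 and CELSR1 overlapped, and those of the other neighbours in this order did not. After 3 days GPR56 stood first at 487 ± 76.6 per kb and GPR126 next at 301 ± 15.5. CELSR1 followed at 179 ± 31.7, then CELSR3 at 93.7, GPR110 at 88.6 and GPR116 at 82.6. The ranges of CELSR3 and GPR110 overlapped, as did those of GPR110 and GPR116, and no other neighbours in this order did. CELSR2 was last, at 3.81 per kb. After 7 days the order was GPR56 at 759 ± 65.6 per kb, CELSR1 at 262 ± 27.8, GPR126 at 168 ± 8.91, CELSR3 at 145 ± 10.3, GPR116 at 66.6 ± 4.30, CELSR2 at 13.4 ± 1.09 and GPR110 at 7.27 ± 0.13, with no overlap between neighbours. GPR110 went from the first place to the seventh. Per kb of all annotated exons, GPR110 was again first with SB and seventh at 7 days, and GPR56 first at 7 days. With that length GPR56 and CELSR3 exchanged places with SB, and GPR126 with GPR56 and GPR116 with GPR110 at 3 days.

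**Figure D3:**
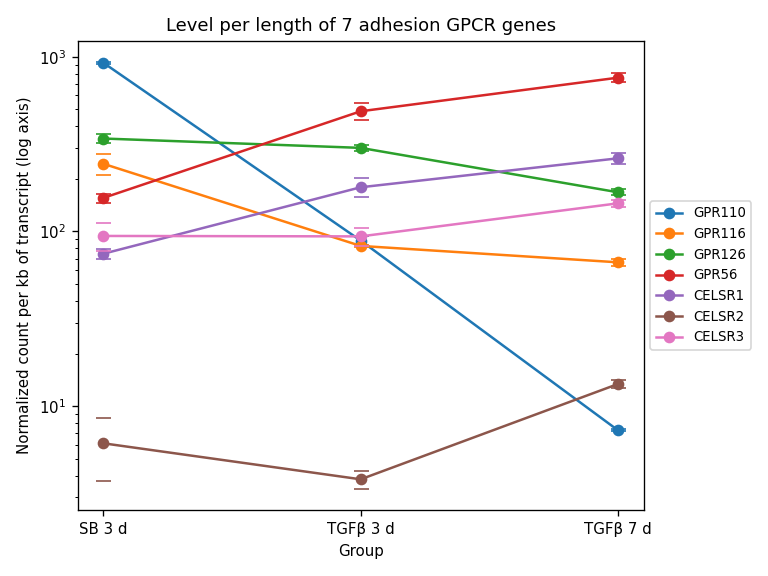
Normalized count per kb of the canonical transcript (y axis, log scale) for the 7 genes in the 3 groups (x axis); circles are means of 2 libraries and dashes are the libraries. GPR110 goes from 924 to 7.27 per kb and GPR56 from 156 to 759.

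GPR116 and GPR110 are neighbours on chromosome 6, 42.8 kb apart. The family gene GPR111 (ADGRF2) lies 614.1 kb beyond GPR110, and the family gene GPR115 (ADGRF4) follows it in the same stretch of 869.5 kb. GPR111 was at 2 and 2 normalized counts with SB, 47 and 51 at 3 days and 68 and 68 at 7 days. The mean of GPR111 was 24.5-fold that with SB at 3 days and 34-fold at 7 days, ratios that rest on 2 normalized counts in each SB library. GPR115 was at 12 and 6, then 131 and 107, then 237 and 216. Its mean was 13.2-fold that with SB at 3 days and 25.2-fold at 7 days. Both genes passed the filter on low values only through the TGFβ libraries, so no p is given for them against SB. So GPR116 and GPR110 were lower and GPR111 and GPR115 higher with TGFβ in every library. The spans of GPR111 and GPR115 overlap on the plus strand, and GPR111 is annotated as a pseudogene. Whether exons of GPR111 and GPR115 overlap was not checked, so how reads over the shared stretch were counted is not known. Of the genes between them, chosen for their place after the values were seen, TNFRSF21 was at 3694 and 3230, 1927 and 2062, then 1216 and 1232, whereas CD2AP stayed between 4383 and 5090.

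**Figure D4:**
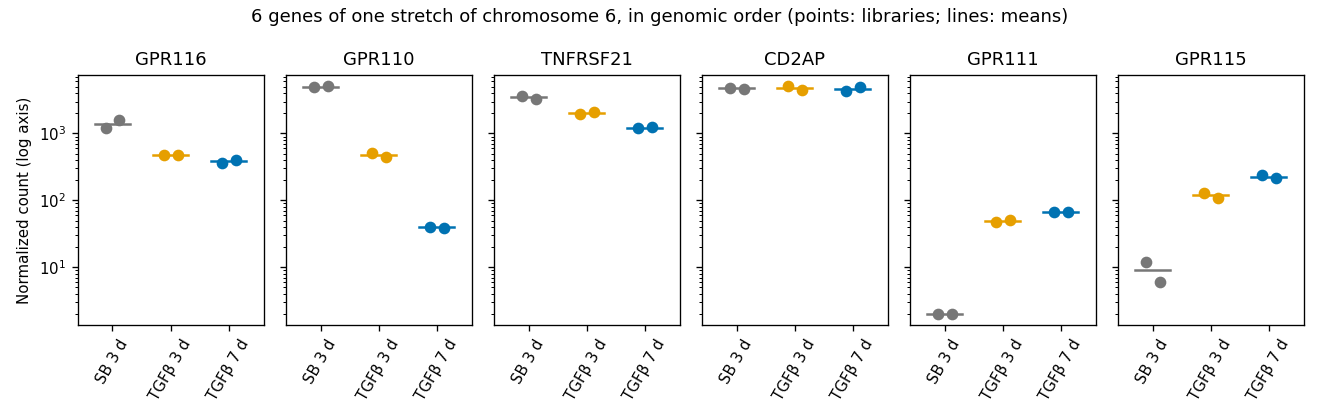
Normalized counts (y axis, log scale) of 6 genes from one stretch of chromosome 6, ordered by position, in the 3 groups (x axis); points are libraries and lines are means. GPR116, GPR110 and TNFRSF21 step down, CD2AP stays between 4383 and 5090, and GPR111 and GPR115 step up from 2 and from 6 to 12.

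GPR97, the family gene next to GPR56 on chromosome 16, was at 0 to 2 normalized counts in all libraries and was not tested.

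Beside the 7 genes, 26 other human adhesion GPCR genes were listed; 22 had a row and 12 passed the filter of a mean of at least 10. GPR111, GPR115 and GPR124 had an SB mean below that filter and passed it only through the TGFβ libraries, so a rise was built into their passing. Of the 12, 4 were called at 3 days relative to SB (3 higher, 1 lower), 8 at 7 days relative to SB (6 higher, 2 lower) and 6 between 7 and 3 days (5 higher, 1 lower). Over all genes tested, 29.0%, 54.5% and 33.2% were called. Without those 3 genes, 2 of 9 were called at 3 days (1 higher, 1 lower), 5 of 9 at 7 days (3 higher, 2 lower) and 4 of 9 between 7 and 3 days (3 higher, 1 lower). The median log2 fold changes of the 9 were -0.081, -0.099 and -0.056.

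Among the family genes with higher values after TGFβ was EMR2, a receptor of myeloid cells, at 13 and 12 with SB, 41 and 58 at 3 days and 109 and 107 at 7 days. EMR2 rose by 1.88 at 3 days (adjusted p = 0.000263) and by 3.01 at 7 days (adjusted p = 2.71e-06). BAI2, mostly of brain, was at 42 and 47, 38 and 49, then 141 and 112. BAI2 rose by 1.48 at 7 days relative to SB (adjusted p = 0.000293), and the difference at 3 days was -0.041 (adjusted p = 0.918). GPR124, a coreceptor for WNT7 in brain vessels, was at 5 and 12, 7 and 16, then 30 and 30, without a p against SB for the reason given above. LPHN1, the latrotoxin receptor, was at 231 and 475, 250 and 307, then 598 and 561. Its rise of 0.80 at 7 days over SB (adjusted p = 0.0195) was 0.29 without the first SB library (adjusted p = 0.175). Without the first or the second 7-day library its adjusted p was 0.0782 or 0.0558.

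Lower among the other family genes were GPR64, known from epididymal epithelium, and CD97, which binds CD55. GPR64 was at 1708 and 1678 with SB, 1129 and 1021 at 3 days and 763 and 867 at 7 days, without overlap. It fell by 0.66 at 3 days (adjusted p = 0.000737) and fell by 1.06 at 7 days (adjusted p = 8.3e-06). CD97 was at 5161 and 5183, 4053 and 4665, then 4375 and 3878, and fell by 0.33 at 7 days (adjusted p = 0.0126). Without the second 7-day library its log2 fold change was -0.24 (adjusted p = 0.15). GPR125 stayed between 1281 and 1438, GPR133, which raises cyclic AMP, between 247 and 336, and GPR98, of sensory hair cells, between 14 and 35. These 3 genes did not pass the test in the 3 comparisons, and GPR133 came nearest with -0.35 at 7 days relative to SB (adjusted p = 0.056). The other 10 genes with a row were between 0 and 11 in every library: LPHN2, LPHN3 and GPR112 were at 0 in all of them, and BAI1 reached 11.

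**Figure D5:**
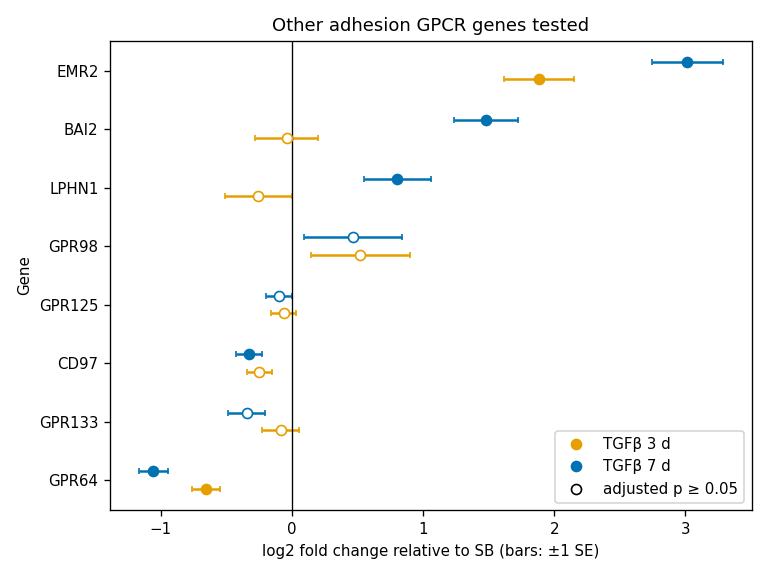
Log2 fold change relative to SB (x axis) at 3 and 7 days of TGFβ for 8 of the 12 other adhesion GPCR genes tested (y axis), with bars of 1 SE; filled circles passed an adjusted p of 0.05. GPR111, GPR115 and GPR124, which passed the filter only through the TGFβ libraries, and 1 gene not reported by name are left out. EMR2 rose at both times, and GPR64 fell at both.

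Known ligands and binding partners of the family were in a list of 35 genes, of which 20 were tested. Relative to SB, 8 of the 20 were called at 3 days (6 higher, 2 lower; 29.0% of all genes were called) and 13 at 7 days (10 higher, 3 lower; 54.5% of all genes). Between 7 and 3 days, 9 were called (7 higher, 2 lower; 33.2% of all genes). Of the 20, 2 had an SB mean below the filter, among them the teneurin gene TENM3 at 5 and 11 with SB, 19 and 21 at 3 days and 52 and 60 at 7 days. Without both, 5 of 18 were higher and 2 lower at 3 days, 9 higher and 3 lower at 7 days, and 6 higher and 2 lower between 7 and 3 days. FLRT3, a ligand of latrophilins, was at 83 and 37 with SB, 489 and 500 at 3 days and 589 and 591 at 7 days, a rise of 3.13 (adjusted p = 5.24e-06) and 3.39 (adjusted p = 1.2e-06). FNDC4, which binds GPR116, was at 453 and 497 with SB, 886 and 861 at 3 days and 1276 and 1195 at 7 days. FNDC4 thus rose by 0.88 (adjusted p = 9.08e-05) and 1.38 (adjusted p = 1.01e-06) relative to SB. The GPR56 ligand TGM2 was at 14253 and 15716 with SB, 14703 and 16861 at 3 days and 29969 and 26925 at 7 days, and rose by 0.85 from 3 to 7 days (adjusted p = 8.91e-05). CD9, a tetraspanin found with GPR56, was at 3637 and 3722, 2510 and 2440, then 1815 and 1765, and fell by 0.57 (adjusted p = 0.000357) at 3 days and fell by 1.04 at 7 days relative to SB (adjusted p = 1.29e-06). TENM4, a teneurin, was above SB by 0.64 at 3 days (adjusted p = 0.000563) and by 1.37 at 7 days (adjusted p = 5.52e-07). RECK and WNT7B, which act with GPR124 in WNT7 signaling, differed between 7 and 3 days by 0.70 (adjusted p = 0.00242) and -0.65 (adjusted p = 0.00431). The WNT7B difference was -0.54 without the second 7-day library (adjusted p = 0.053).

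All 14 planar cell polarity partners of the CELSR proteins were tested. Relative to SB, 5 of the 14 were called at 3 days (2 higher, 3 lower; 29.0% of all genes were called) and 10 at 7 days (7 higher, 3 lower; 54.5% of all genes). The 2 called between 7 and 3 days, where 33.2% of all genes were, were both higher. VANGL2, at 3 and 1 with SB, 23 and 26 at 3 days and 25 and 29 at 7 days, passed the filter only through the TGFβ libraries. Without it, 1 of 13 was higher and 3 lower at 3 days, and 6 were higher and 3 lower at 7 days. PRICKLE1, of the cytoplasmic arm of the pathway, was at 382 and 333 with SB, 168 and 148 at 3 days and 176 and 158 at 7 days, and fell by 1.17 (adjusted p = 0.000188) at 3 days and fell by 1.09 at 7 days (adjusted p = 0.000142). DVL3, a Dishevelled adaptor, was at 5006 and 5451, 5847 and 6507, then 9967 and 9690. It rose by 0.91 at 7 days relative to SB (adjusted p = 4.64e-06) and by 0.67 from 3 to 7 days (adjusted p = 0.000243). The receptor FZD6 rose by 0.45 from 3 to 7 days (adjusted p = 0.00317), with 0.39 (adjusted p = 0.0533) without the second 7-day library. PRICKLE3, SCRIB and DVL1 passed the test at 3 days with log2 fold changes of -0.73, -0.63 and 0.54, and each missed it without the second SB library, at an adjusted p of 0.115, 0.173 and 0.18. PRICKLE3 and SCRIB also missed it without the first 3-day library (0.132 and 0.228), and DVL1 without the second 3-day library (0.288) or the first SB library (0.0739). At 7 days SCRIB fell by 0.78 (adjusted p = 0.00372) and PRICKLE3 fell by 0.69 (adjusted p = 0.0123), the latter with an adjusted p of 0.0944 without the second SB library and 0.0925 without the second 7-day library.

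Among 21 genes of G protein signaling and its regulators, all tested, 7 were called at 3 days relative to SB (4 higher, 3 lower; 29.0% of all genes were called). At 7 days 9 were called (5 higher, 4 lower; 54.5% of all genes), and between 7 and 3 days 4 were (3 higher, 1 lower; 33.2% of all genes). ARRB2, which ends receptor signaling as a β-arrestin, was at 925 and 1036 with SB, 342 and 333 at 3 days and 251 and 251 at 7 days. It fell by 1.53 at 3 days (adjusted p = 2.76e-06) and fell by 1.96 at 7 days (adjusted p = 1.53e-07). ADRBK1, a receptor kinase, fell by 0.66 at 3 days (adjusted p = 0.00378), with an adjusted p of 0.0592 without the filter on low values and 0.0525 without the trend. GNA15, an α subunit of the Gq class, was at 305 and 328, 548 and 642, then 680 and 604, a rise of 0.91 (adjusted p = 0.000312) and 1.02 (adjusted p = 5.58e-05). ARHGEF11, a guanine nucleotide exchange factor, rose by 0.70 at 7 days (adjusted p = 0.000537). GNAI1 rose by 0.55 at 3 days (adjusted p = 0.0308), with the adjusted p at 0.246 if the first 3-day library was left out and at 0.0944 if the first SB library was. GNAO1 was at 31 and 60, 28 and 34, then 108 and 88, and rose by 1.16 at 7 days (adjusted p = 0.00801), or by 0.69 without the first SB library (adjusted p = 0.0603) and 1.01 without the first 7-day library (adjusted p = 0.0657). GNAS, the subunit that raises cyclic AMP, was higher at 7 than at 3 days by 0.43 (adjusted p = 0.00169).

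The genes most like each of the 7 were found among 12306 genes whose mean reached 50, by the root mean square difference of centred log2(value + 1) over the 6 libraries. Nearest to GPR110 were HOPX (0.31), ACOXL (0.38) and SFTA1P (0.54), of which HOPX was at 3819 and 3854 with SB, 271 and 255 at 3 days and 34 and 38 at 7 days. These distances were longer than those of the other 6 genes, whose nearest gene lay between 0.038 and 0.14 away. GPR110 was picked for its steep fall, and a distance of this kind can grow with the size of a change, so nothing is read from its length. For GPR116 the nearest was RAPGEF5 (0.051), then ABHD17C and ZNF620. SNHG12 (0.038), TNFRSF19 and ZBTB2 were nearest to GPR126. FAM214B (0.087), TLN2 and TGFB1 were nearest to GPR56, with TGFB1 at 431 and 481 with SB, 1381 and 1775 at 3 days and 2595 and 2153 at 7 days. ETHE1 (0.047), MXRA8 and FURIN were nearest to CELSR1, IL1A (0.14), PER3 and SCD5 to CELSR2, and MYH7B (0.054), SLC16A13 and KIAA0895L to CELSR3. This likeness covers 6 libraries of 3 groups that share their library preparation.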

How the data were processed

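RNA-seq libraries of H2087-LCC cells (2 per group, grouped by the treatment label) were read from 1 deposited table. Per the labels and the study's methods, the authors checked reads with FastQC 0.11.5, mapped them to hg19 with STAR, counted uniquely mapped reads with HTSeq 0.6.1p1 and normalized by library size with DESeq2; the annotation release is not given in the sources used here. The deposited values are normalized counts rounded to whole numbers, so they were treated as a score and not as read counts, and no count test was run. The library kit does not mark strand, so reads from a gene and an antisense partner cannot be told apart.

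Values were taken as log2(value + 1). The 14395 genes with a mean of 10 or more were fitted together with limma 3.58.1 in R 4.3.3 (group as the only term, 6 libraries, 3 residual degrees of freedom, trend on mean), with Benjamini-Hochberg adjustment over all genes in each of 3 comparisons. Fold changes on this scale understate those of low genes. For 2 libraries against 2, a two-sided exact permutation test of a single gene cannot give a p below 0.333, so the model across all genes was used. What 1 read was worth was estimated from the gaps between low values; intervals and depths cover counting error only.

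The members and the gene lists were chosen with earlier results of these data known. Named were the members, family genes with a mean of 10 or above, the up to 4 largest changes past the threshold in each further list and comparison (mean at least 50), the 3 nearest genes of each member and the treatment check genes. Replicate numbers were not taken to pair libraries, since same-numbered libraries did not deviate together in every pair of groups: the correlation of deviations was 0.14 between SB and 3 days, -0.10 between SB and 7 days and -0.29 between 3 and 7 days. Positions are on GRCh37 (GENCODE), promoters on GRCh38.p14 (RefSeq). On simulated data for 7 days against SB (14332 genes), 57 of 65 genes changed 2-fold and 53 of 67 changed 1.5-fold were called, with 14 false calls. The simulation gave all genes and groups the same dispersion (0.00385) and changed only a small part of the genes. In the data 54.5% of genes were called in this comparison, and the SB libraries differed from each other more than the others did. These rates therefore do not carry over to the data. Alternatives were a pseudocount of 0.5 or 5, other filters and scalings, no trend, fewer groups, a replicate block and each library left out. Some genes of the lists are counted but not reported here by name. Plots were made in Python 3.11.15 (matplotlib 3.10.9).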

Additional observations from a re-analysis of the deposited data

Results flagged for a closer look

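These results are listed because the values at 7 days of TGFβ differed from those at 3 days in the limma test. All values are log2 fold changes of 7 against 3 days. Without an SB library at 7 days, longer exposure to TGFβ and longer time in culture cannot be told apart. Among the genes described first, GPR126 differed by -0.84 (adjusted p = 0.000139), GPR56 differed by 0.64 (adjusted p = 0.00249) and CELSR1 differed by 0.56 (adjusted p = 0.00738), and CELSR2 differed by 1.80 (adjusted p = 0.00199) and CELSR3 differed by 0.64 (adjusted p = 0.0117). GPR126 was lower at 7 days and the other 4 were higher.

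Among the other adhesion GPCR genes, GPR115 differed by 0.93 (adjusted p = 0.0298), EMR2 differed by 1.13 (adjusted p = 0.00824) and BAI2 differed by 1.52 (adjusted p = 0.000878). LPHN1 and GPR124 were higher by 1.06 (adjusted p = 0.00887) and 1.41 (adjusted p = 0.0428), and GPR64 was lower, at -0.40 (adjusted p = 0.0152). The GPR115, EMR2, GPR124 and GPR64 calls were each lost without the first 7-day library, with adjusted p-values of 0.155, 0.0638, 0.145 and 0.152, and without the first 3-day library, with 0.0606, 0.089, 0.285 and 0.123. For LPHN1 the adjusted p was 0.0958 with no filter on low values and 0.0754 with no trend. Without the second 7-day library, GPR115, EMR2 and GPR124 had 0.11, 0.0615 and 0.151, and GPR115 had 0.146 without the second 3-day library.

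Among the ligands and partners, TGM2 differed by 0.85 (adjusted p = 8.91e-05) and TENM4 differed by 0.73 (adjusted p = 0.000388), and RECK differed by 0.70 (adjusted p = 0.00242) and WNT7B differed by -0.65 (adjusted p = 0.00431). Among the polarity genes, DVL3 differed by 0.67 (adjusted p = 0.000243) and FZD6 differed by 0.45 (adjusted p = 0.00317). In G protein signaling, GNAO1 differed by 1.63 (adjusted p = 0.00257) and GNAS differed by 0.43 (adjusted p = 0.00169). ARRB2 was lower, at -0.43 (adjusted p = 0.0225), and lost the call without any one of the 3-day or 7-day libraries, with adjusted p-values between 0.0772 and 0.113. The groups of 2 libraries were too small for a check of single libraries that stand apart.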

How the results depend on the processing

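Of the results on the 7 genes, 291 values kept their direction and their side of the threshold (or stayed within the spread) over the alternatives, 13 kept the direction but missed the threshold, 1 newly passed it, 4 reversed and 6 moved. The number called between 7 and 3 days was 5 of 6. For the alternatives that follow, apart from the replicate blocks, the share of all genes called is not given. A general loss of calls can therefore not be told apart. The number was 3 without a filter on low values, 3 without the trend and 1 with an absolute log2 fold change over 1. Leaving out a library gave 3 to 5. For the other family genes in this comparison it was 6 of 12, with 3 without the trend and 2 to 5 when a library was left out; the cause was not tested. CELSR2 at 3 days ranged from -1.15 to 0.024 on leaving out a library and CELSR3 from -0.26 to 0.27, including -0.17 without the second 3-day library, and CELSR3 was -0.051 with equal library totals. Without a filter, the 7-day rises over SB of CELSR2 and CELSR3 had adjusted p-values of 0.0671 and 0.0611, and the latter had 0.0515 without the trend. The later rises of CELSR1 and CELSR3 had 0.0653 and 0.0961 without a filter and 0.0613 and 0.083 without the trend. With the replicate number as a block, 3, 6 and 5 of the 6 genes and 4, 8 and 6 of the 12 were called, so the replicate block changed no member's call; over all genes 3943, 7546 and 4485 were called against 4170, 7851 and 4775. The libraries share only a number. Crossing the 7-day numbers in the block, an alternative chosen after seeing the data, gave 5404, 8763 and 5972. No scaling moved the median of all genes by more than 0.056. The intervals rest on 2 libraries a group and on a spread estimated with information from all genes. The smallest difference that could be detected was not computed.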
